A study of Mus musculus with 2 samples.

Results

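The genes described here were 10 genes of glutathione, thioredoxin and NADPH metabolism that the transcription factor NRF2 is known to control: Gclc, Gclm, Slc7a11, Gsr, Txn1, Txnrd1, Srxn1, Nqo1, Idh1 and Me1. They were taken by name from the 32285 genes of the deposited count tables, and all 10 were found there. Their levels were followed across the immune cells of AT3 tumors, which grow from a mouse mammary tumor line. One library came from Pgd fl/fl mice, labelled WT, and 1 from Pgd fl/fl LysMCre mice, labelled 6PGDKO, and they go by these labels below. The control thus also carried the floxed Pgd gene. In the second genotype Cre is expressed from the Lyz2 locus, which is active in myeloid cells, so Pgd, the gene of 6-phosphogluconate dehydrogenase (6PGD), was targeted in the myeloid cells and not in the tumor cells. Per the study's methods, each library pooled the tumors of 10 female mice, aged 6 to 12 weeks and taken on day 30 after 500000 tumor cells had been injected. The labels name CD45+ cells in one place and live CD11b+ cells in another as the sorted population, and both libraries held T and B cells.

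Glutathione and thioredoxin are the main thiol reductants of a cell, and both are returned to their reduced form with electrons from NADPH. The oxidative pentose phosphate pathway makes NADPH, in part at 6PGD, while cytosolic isocitrate dehydrogenase (Idh1) and malic enzyme (Me1) are further sources. NRF2 is held low by KEAP1 under resting conditions, and under oxidative or electrophilic stress it binds antioxidant response elements (AREs) near genes such as these.

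The core letters of the ARE, TGACNNNGC, were sought on both strands of RefSeq promoter windows of 300 bases, from 250 bases before to 50 after an annotated transcript start (GRCm38.p6). Of the 10 genes, 8 had such a window, 12 windows in all, and Gsr and Gclc had none in the table. The letters occurred in 1 window each of Gclm, Txnrd1, Srxn1 and Me1, so in 4 of the 8 genes. Among all genes of the table, 14% had a window with these letters, and among all 32851 windows 12.4% did. The stretches are printed 5′ to 3′ on the strand of the gene to show where these letters lie, with the matching letters in capitals.
Gclm, chr3:122245413-122245441, plus strand: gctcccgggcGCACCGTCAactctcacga
Txnrd1, chr10:82859104-82859132, plus strand: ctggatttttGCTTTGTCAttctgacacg
Srxn1, chr2:152105542-152105570, plus strand: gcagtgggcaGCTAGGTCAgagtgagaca
Me1, chr9:86695902-86695930, minus strand: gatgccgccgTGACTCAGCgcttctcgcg
The first 3 of these sites read TGACNNNGC on the opposite strand. The site of Gclm began 134 bases before the transcript start, that of Txnrd1 92 bases before it and that of Srxn1 28 bases after it, whereas that of Me1 began 6 bases before the start and crossed it. The windows of Txn1, Nqo1, Slc7a11 and Idh1 did not hold these letters. A match of letters is a description of the sequence and says nothing of binding in these cells.

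UMIs (unique molecular identifiers, which mark single captured RNA molecules) had been counted per gene and cell barcode. Of 3728 WT barcodes, with 27245625 UMIs in all, 3565 passed the cell filters at a median of 5554 UMIs. Of 3014 6PGDKO barcodes, with 28827045 UMIs, 2798 passed at a median of 7926. No barcode was shared between the libraries. Clustering gave 21 clusters, named from marker genes as macrophage-like (4 clusters), monocyte-like (1), neutrophil-like (1), DC-like (2), T cell-like (7), B cell-like (1), NK cell- and ILC-like (1), epithelial-like (1) and mast cell-like (1), with 2 left unnamed, and these names are used below without the ending. Macrophages numbered 749 in WT and 769 in 6PGDKO, monocytes 128 and 343, neutrophils 57 and 72, DCs 101 and 137, T cells 1687 and 1063, and B cells 570 and 36. When each cell was placed by its own marker UMIs, it received the type of its cluster in 608 of 749 and 579 of 769 macrophages. For monocytes, this held in only 23 of 128 and 47 of 343 cells, and for DCs in only 25 of 101 and 33 of 137. The monocyte cluster had 4 of 8 monocyte markers in at least 25% of its cells. Its macrophage markers summed to 5682 and 5779 CPM (UMIs per 1000000 UMIs of the same cells). Its monocyte markers summed to 2951 and 2186 CPM, so this label is weakly held. The DC label, too, was met by few cells on their own markers. Macrophage clusters 10 and 11 had the immunoglobulin genes Ighm, Jchain and Ighg2b among their leading genes.

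The UMIs of each gene were added up over the cells of a type in 1 library and expressed as CPM. The libraries were set against each other as log2 ratios, 6PGDKO over WT. Since each genotype had a single library, no test was made. A difference between the genotypes cannot be told apart from one between the 2 preparations. All intervals are 95% intervals computed exactly from the counts, so they hold counting error and nothing else. Levels are compared between cells for a given gene, not between genes, as the counts were not scaled by transcript length. Pgd itself checked the labels: it stood at 104 CPM in macrophages of WT and at 29.9 CPM in those of 6PGDKO (log2 ratio -1.80, -1.98 to -1.61). In monocytes the values were 76.6 and 29.7 CPM (-1.36, -1.76 to -0.97), in neutrophils 8 and 5 UMIs, and in T cells 25.4 and 30.5 CPM (0.26, -0.01 to 0.53). The epithelial cells, which Cre from Lyz2 should not reach, had 68.2 CPM (41 UMIs) and 29.8 CPM (32 UMIs), a ratio of -1.19 (-1.91 to -0.49). DCs had 23.9 CPM of Pgd in WT (33 UMIs, 16.4 to 33.5 CPM) and 21.8 CPM in 6PGDKO (48 UMIs, 16.0 to 28.9 CPM). Pgd was thus lower in the library labelled 6PGDKO in macrophages and monocytes and also in the few epithelial cells. It was not lower in T cells, and in DCs the intervals overlapped, so no loss of Pgd was seen there.

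**Figure D1:**
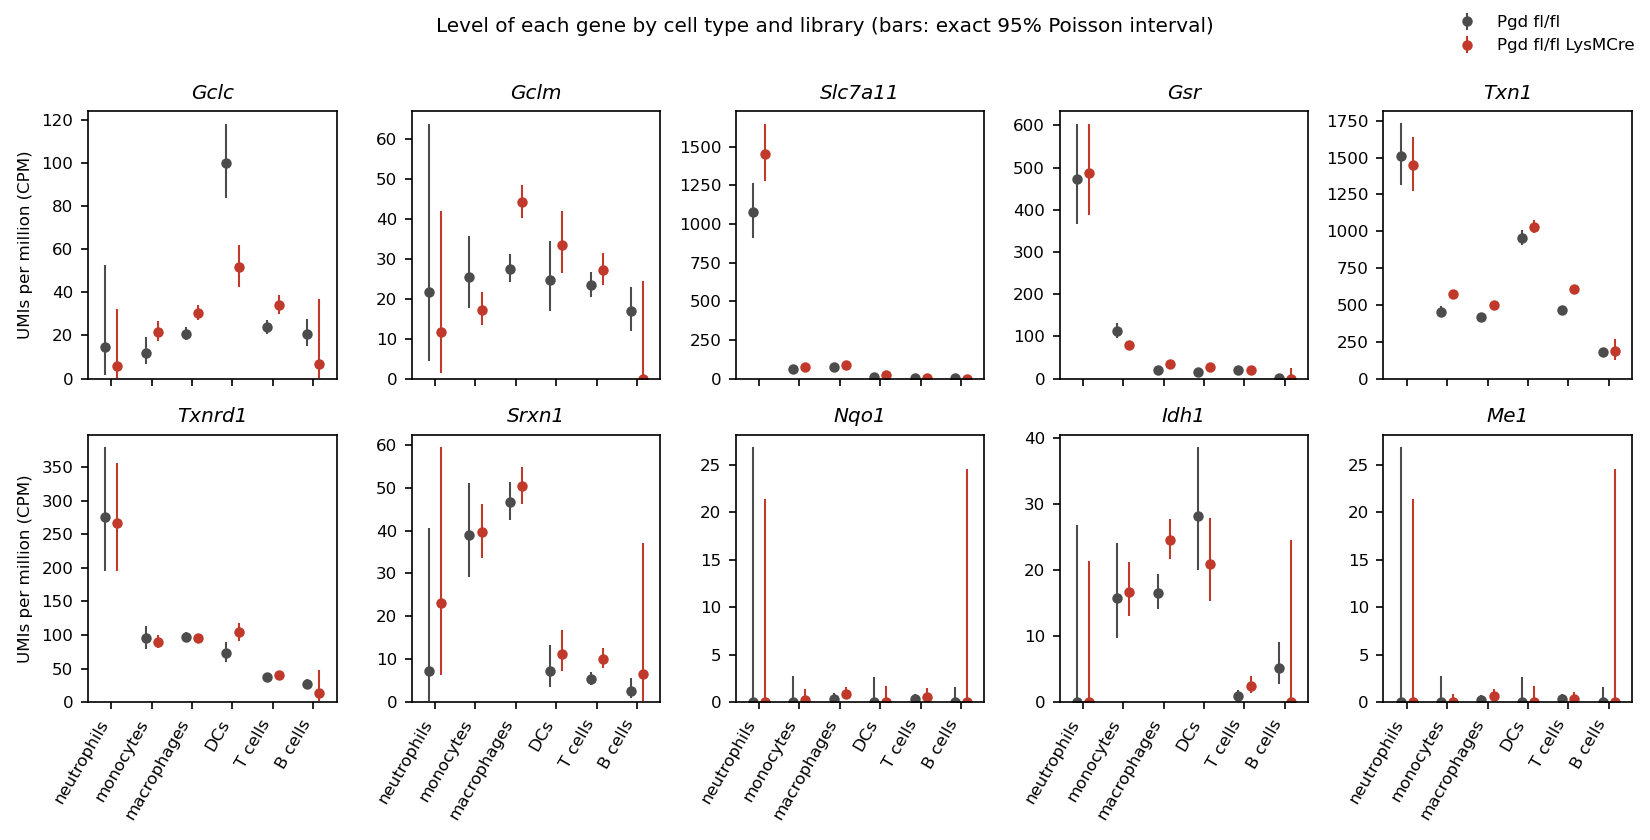
Level of each of the 10 genes in CPM (linear axis from 0, a scale of its own for each gene) in 6 cell types of the Pgd fl/fl library (grey) and the Pgd fl/fl LysMCre library (red), with exact 95% Poisson intervals as bars. Slc7a11, Gsr and Txnrd1 peak in neutrophils and Gclc in DCs, whereas Nqo1 and Me1 are at or near 0 CPM in all 6 types, and the wide bars of neutrophils and B cells follow from their few UMIs.

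Gclc and Gclm encode the catalytic and the modifier subunit of glutamate-cysteine ligase, the rate-limiting enzyme of glutathione synthesis. Gclc (ENSMUSG00000032350, chr9:77754535-77794489) was highest in DCs among the 6 cell types plotted. It stood there at 99.9 CPM in WT (138 UMIs, 83.9 to 118 CPM) and at 51.7 CPM in 6PGDKO (114 UMIs, 42.6 to 62.1 CPM). These levels were 4.85-fold (3.86 to 6.07) and 1.70-fold (1.36 to 2.11) those of the macrophages of the same library. The margin over macrophages was smaller in 6PGDKO. Within DCs, most of its UMIs came from cluster 12, led by Fscn1 and Ccl22, genes of mature DCs, where it stood at 149 and 85.6 CPM. The Xcr1 and Clec9a cluster of cross-presenting DCs, cluster 15, had 35.1 and 9.20 CPM, in 6PGDKO less than the 30.5 CPM of the macrophages. T cell cluster 6 reached 82.7 CPM in 6PGDKO, so the high level was not one of DCs at large.

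Between the libraries, Gclc in DCs was lower in 6PGDKO, with a log2 ratio of -0.95 (-1.32 to -0.58). The sign was the same in both DC clusters, at -0.80 (-1.20 to -0.41) in cluster 12 and -1.93 (-3.24 to -0.74) in cluster 15. The value of cluster 15 rested on 21 and 9 UMIs, of which 5 cells held 85.7% and 77.8%. Over all DCs, too, a few cells carried much of the difference. The 5 cells with the most Gclc UMIs held 51.4% of the UMIs in WT DCs and 36.8% in 6PGDKO DCs. Without them the log2 ratio was -0.57. The share of DCs with a Gclc UMI was 33.7% in WT (24.6% to 43.8%) and 32.1% in 6PGDKO (24.4% to 40.6%), so the shares overlapped. With every cell thinned to 2500 UMIs they were 19.2% (11.97% to 28.3%) and 12.6% (7.51% to 19.4%). Leaving out DCs with 2 or more UMIs of T, B or epithelial markers, which kept 51 and 46 cells, took the log2 ratio to -0.16, and clustering without Lyz2, Pgd and the 10 genes took it to -0.58.

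In macrophages, monocytes and T cells Gclc was higher in 6PGDKO. Macrophages had 20.6 CPM in WT (190 UMIs) and 30.5 CPM in 6PGDKO (324 UMIs), for a log2 ratio of 0.57 (0.30 to 0.83). Monocytes had 12.02 CPM (16 UMIs) and 21.6 CPM (88 UMIs), a ratio of 0.85 (0.07 to 1.72) that rested on few molecules and came to 0.19 after thinning. T cells had 23.7 and 34.2 CPM, a ratio of 0.53 (0.26 to 0.80). The macrophage ratio was 0.55 in cluster 0 and 0.58 in the cycling cluster 11, and 0.19 without cells carrying UMIs of other lineages. Among T cells the gene was highest in cluster 6, which expressed Il17a and Il13, at 52.8 and 82.7 CPM. There 5 cells held 57.4% of the Gclc UMIs in WT and 45.5% in 6PGDKO. The shares of T cells with a Gclc UMI overlapped, at 9.90% (8.52% to 11.4%) and 11.9% (9.97% to 13.9%). The T cell ratio was 0.04 when cells were clustered without Lyz2, Pgd and the 10 genes, which counted 1616 and 1003 cells as T cells. Gclc is among the genes the study itself used to mark a myeloid subset of these samples.

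Gclm (ENSMUSG00000028124, chr3:122245487-122267215) was spread more evenly over the immune cells of WT. There its level lay between 15.7 CPM in NK cells and ILCs and 27.5 CPM in macrophages, with overlapping intervals between neighbours in that order. In 6PGDKO the interval of macrophages overlapped that of DCs. It lay above those of T cells at 27.2 CPM (23.5 to 31.4 CPM) and monocytes at 17.2 CPM (13.4 to 21.7 CPM). The highest level was in the few epithelial cells, at 88.2 CPM (53 UMIs in 28 cells) and 157 CPM (168 UMIs in 46 cells). Macrophages had 27.5 CPM (254 UMIs, 24.3 to 31.1 CPM) in WT and 44.2 CPM (470 UMIs, 40.3 to 48.4 CPM) in 6PGDKO, a log2 ratio of 0.68 (0.46 to 0.91). The intervals did not overlap, and the 10 alternatives run for this value gave ratios from 0.52 to 0.90, the lowest being a difference of less than 1.5-fold. The 5 cells with the most Gclm UMIs held 20.9% of the macrophage UMIs in WT and 29.6% in 6PGDKO. The ratio was 0.73 (0.48 to 0.99) in cluster 0, 1.62 (0.34 to 3.09) in cluster 10 and 0.25 (-0.27 to 0.79) in the cycling cluster 11. In monocytes Gclm stood at 25.5 and 17.2 CPM, with a ratio of -0.57 whose interval reached 0.07. DCs and T cells had ratios of 0.45 (-0.16 to 1.08) and 0.21 (-0.08 to 0.49). The subunits of the ligase thus had positive point ratios together in macrophages and in T cells, and point ratios of opposite sign in monocytes and in DCs. In DCs the sign of Gclm turned when cells carrying markers of other lineages were left out.

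Slc7a11 (ENSMUSG00000027737, chr3:50364936-50499087) encodes xCT, the cystine importer that supplies cysteine for glutathione. It divided the cell types sharply. Neutrophils had 1077 CPM in WT (148 UMIs, 911 to 1265 CPM) and 1456 CPM in 6PGDKO (251 UMIs, 1281 to 1647 CPM). Macrophages followed with 77.8 and 87.8 CPM and monocytes with 60.1 and 72.5 CPM. The neutrophil level was 13.8-fold (11.5 to 16.5) that of macrophages in WT and 16.6-fold (14.4 to 19.1) in 6PGDKO. DCs had 13.7 and 24.0 CPM, and cluster 12 held 18 of their 19 UMIs in WT and 50 of 53 in 6PGDKO. T cells had 1.45 and 1.29 CPM, and B cells 3 UMIs and 0 UMIs.

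The same division showed in the share of cells with a Slc7a11 UMI. It was 66.7% of neutrophils in WT (52.9% to 78.6%) and 80.6% in 6PGDKO (69.5% to 88.9%), at median depths of 2231 and 2113 UMIs. In B cells, which are deeper, at medians of 3396 and 3082.5 UMIs, the share was 0.526% of 570 cells, and 0 of 36 cells, which allows a share of up to 9.74%. Macrophages had 35.4% and 37.3%. Neutrophils were thus far above the level of free RNA that the B cells set.

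Between the libraries, the log2 ratio of Slc7a11 was 0.17 (0.03 to 0.32) in macrophages, 0.27 (-0.09 to 0.65) in monocytes and 0.43 (0.14 to 0.74) in neutrophils. The value in neutrophils rested on 57 and 72 cells and was -0.13 after thinning, which kept 15 and 17 of them, and 0.08 with cells placed by their own markers. In DCs it was 0.81 (0.03 to 1.64), from 19 and 53 UMIs. Over all cells the ratio was 0.58 (0.47 to 0.70), larger than within macrophages, monocytes or neutrophils, and the WT library held more T and B cells, in which the gene is near 0. Hemoglobin genes had 0 UMIs in the neutrophils of WT and 7375 UMIs, or 42775 CPM, in those of 6PGDKO, and their part in these ratios was not tested.

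**Figure D2:**
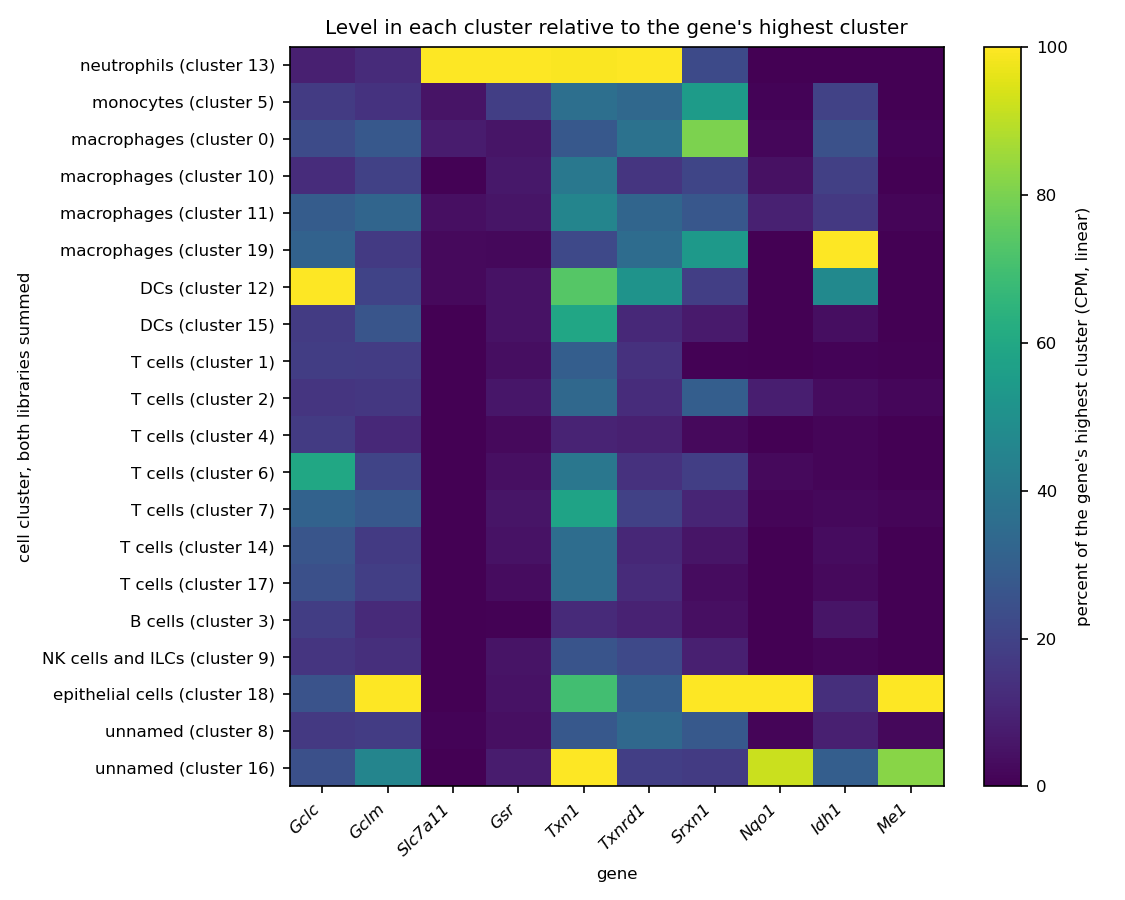
Level of each gene (columns) in 20 cell clusters (rows, both libraries summed), as a percent of the level in the gene's own highest cluster, from CPM on a linear scale; the mast cell cluster of 16 cells is left out. Slc7a11, Gsr and Txnrd1 share their highest cluster, the neutrophils, whereas Nqo1 and Me1 are highest in the epithelial cluster 18 and the unnamed cluster 16, with few UMIs elsewhere.

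Gsr (ENSMUSG00000031584, chr8:33653238-33698162) encodes glutathione reductase, which turns oxidized glutathione back into its reduced form at the expense of NADPH. It was highest in neutrophils, at 473 CPM in WT (65 UMIs, 365 to 603 CPM) and 487 CPM in 6PGDKO (84 UMIs, 389 to 603 CPM). Monocytes came next, with 113 CPM (151 UMIs, 96.0 to 133 CPM) and 80.6 CPM (328 UMIs, 72.1 to 89.8 CPM). Macrophages, DCs, T cells, NK cells and ILCs lay between 15.2 and 34.3 CPM. Neutrophils, then monocytes, stood above these types in both libraries without overlap of the intervals. B cells had 5 UMIs in WT and 0 in 6PGDKO, and 0.877% of the WT B cells had a UMI of the gene.

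In macrophages Gsr was higher in 6PGDKO. The levels were 19.9 CPM (184 UMIs, 17.2 to 23.0 CPM) in WT and 34.3 CPM (365 UMIs, 30.9 to 38.1 CPM) in 6PGDKO, so the intervals did not overlap. The log2 ratio was 0.78 (0.52 to 1.05), a 1.72-fold difference. The sign was positive in each of the 3 larger macrophage clusters: 0.80 (0.51 to 1.10) in cluster 0, 0.91 (-0.16 to 2.05) in cluster 10 and 0.88 (0.16 to 1.64) in cluster 11. At the finer resolution the macrophages led by Mmp12 and Gpnmb stood at 23.4 and 52.4 CPM, a ratio of 1.17 (0.78 to 1.56), and those led by Ccl12 and Hes1 stood at 17.3 and 23.0 CPM, a ratio of 0.41 (-0.23 to 1.04). The share of macrophages with a Gsr UMI was 18.3% (15.6% to 21.2%) in WT and 29.3% (26.1% to 32.6%) in 6PGDKO. Thinned to 2500 UMIs the shares were 4.89% (3.43% to 6.73%) and 7.75% (5.90% to 9.94%), and these intervals overlapped.

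The macrophage difference was not carried by a few cells, since the 5 cells with the most Gsr UMIs held 11.4% and 10.4% of them and the ratio without them was 0.80. The median depth of the macrophages was 11861 UMIs in WT and 12863 in 6PGDKO, and the log2 ratio of the thinned cells was 0.73. Markers of other cells stood higher in the macrophages of 6PGDKO: the 8 monocyte markers summed to 169 CPM in WT and 224 CPM in 6PGDKO (1 at 0 in each), the 8 neutrophil markers to 65.2 and 102 CPM (2 and 1 at 0), and the 8 T cell markers to 635 and 882 CPM (none at 0). Without the cells that carried 2 or more UMIs of T, B or epithelial markers, the Gsr ratio was 1.09. The part of the monocyte and neutrophil markers in it was not tested. Gsr was singled out by the study on these samples, so its direction in any of these cell types is not independent evidence.

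In the monocyte cluster the ratio had the opposite sign, but it depended on which cells were taken as monocytes. The log2 ratio was -0.49 (-0.77 to -0.20), and the Gsr intervals of the libraries did not overlap. The cluster joined cells of unequal Gsr level. In a finer cluster led by Chil3 and Ace, with 22 and 43 cells, Gsr stood at 460 and 531 CPM, close to the level of neutrophils, and in the larger finer cluster led by Cd209a and Ly6i at 68.7 and 50.3 CPM. The ratio was 0.21 (-0.22 to 0.65) in the former and -0.45 (-0.83 to -0.06) in the latter, and without the Chil3 and Ace cells the monocyte ratio was -0.51. With cells placed by their own markers, which left 24 and 48 monocytes, it was -0.16. The shares of monocytes with a Gsr UMI overlapped, at 45.3% (36.5% to 54.3%) and 45.8% (40.4% to 51.2%). DCs had 15.2 CPM (21 UMIs) and 28.1 CPM (62 UMIs), a ratio of 0.89 (0.15 to 1.68). T cells had 21.3 CPM in both libraries, with a ratio of 0.00 (-0.31 to 0.31), and neutrophils a ratio of 0.04 (-0.44 to 0.53).

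**Figure D3:**
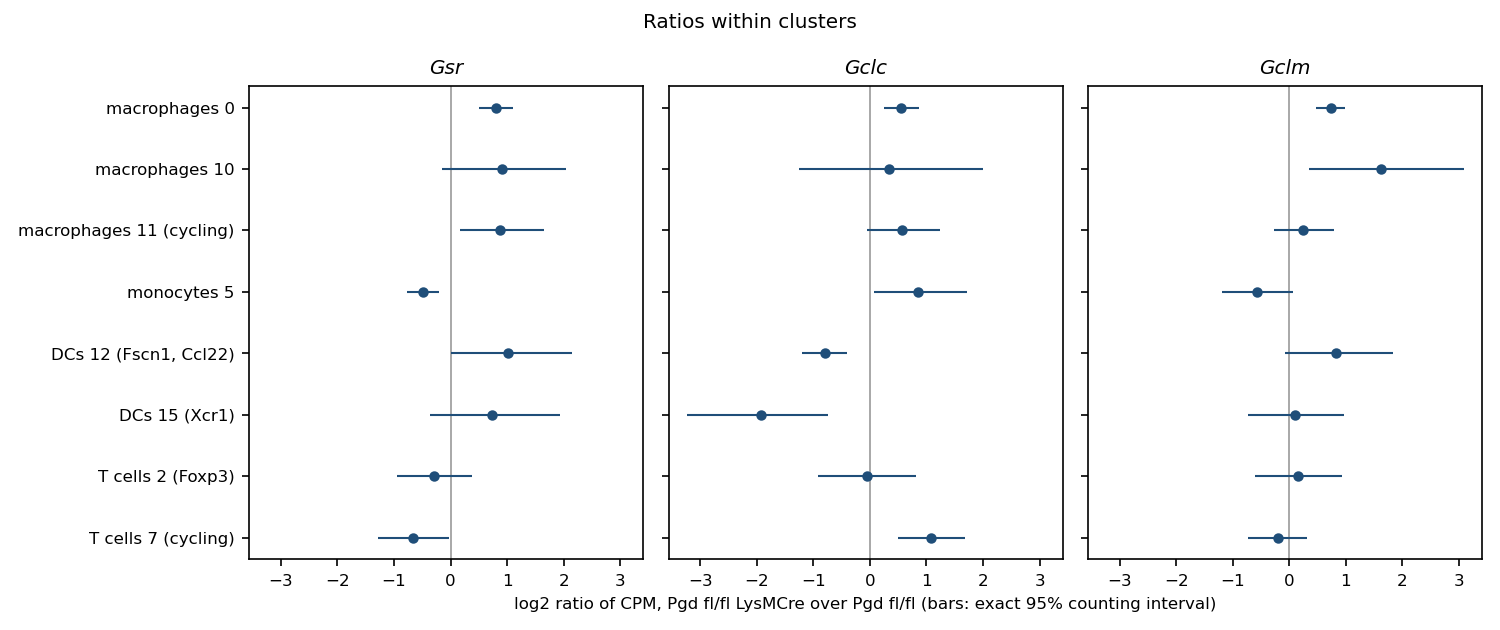
Log2 ratio of CPM, Pgd fl/fl LysMCre over Pgd fl/fl, for Gsr, Gclc and Gclm within 8 clusters, with exact 95% counting intervals as bars. Gsr lies above 0 in the 3 macrophage clusters and below 0 in monocytes (-0.49). Gclc lies above 0 in macrophages and monocytes and below 0 in both DC clusters (-0.80 and -1.93, the latter from 21 and 9 UMIs).

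Txn1 is thioredoxin, Txnrd1 its cytosolic reductase, and Srxn1 is sulfiredoxin, which restores overoxidized peroxiredoxins. Txn1 (ENSMUSG00000028367, chr4:57943373-57956411) was found in every cell type. Neutrophils had 1514 CPM in WT and 1450 CPM in 6PGDKO, DCs 954 and 1031 CPM, and macrophages 420 and 497 CPM. B cells had the least, at 178 and 186 CPM, and the unnamed cluster 16, led by Dcpp3 and Dcpp1, had 1481 and 1493 CPM, a level like that of neutrophils. Its log2 ratios were small with narrow intervals: 0.24 (0.18 to 0.30) in macrophages, 0.34 (0.21 to 0.47) in monocytes, 0.11 (0.01 to 0.21) in DCs and -0.06 (-0.33 to 0.21) in neutrophils. In T cells the levels were 463 and 607 CPM, a ratio of 0.39 (0.33 to 0.45). The T cell cluster led by Lef1, cluster 4, had the lowest Txn1 among the T cells, at 151 and 143 CPM, and held 467 cells in WT but 52 in 6PGDKO. Without that cluster the T cell ratio was 0.17.

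Txnrd1 (ENSMUSG00000020250, chr10:82833951-82897724) was, like Slc7a11 and Gsr, highest in neutrophils, with 277 CPM (38 UMIs) and 267 CPM (46 UMIs) in neutrophils. Macrophages had 97.6 and 95.5 CPM and monocytes 95.4 and 89.7 CPM, and the intervals of these types overlapped in both libraries. The log2 ratio spanned 0 in macrophages (-0.03, -0.16 to 0.10), monocytes (-0.09, -0.38 to 0.21) and T cells (0.11, -0.12 to 0.35). Among the macrophages, cluster 10 stood apart, with a ratio of 1.21 (0.27 to 2.22) from 14 and 33 UMIs. DCs as a whole had 73.8 CPM (102 UMIs) in WT and 104 CPM (229 UMIs) in 6PGDKO, a ratio of 0.49 (0.15 to 0.84).

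Srxn1 (ENSMUSG00000032802, chr2:152105524-152111376) was highest in macrophages and monocytes among the named immune cell types. Neutrophils had 1 and 4 UMIs, with intervals that overlapped those of monocytes in both libraries. Macrophages had 46.7 and 50.3 CPM and monocytes 39.0 and 39.6 CPM, against 7.24 and 11.3 CPM in DCs and 2.59 CPM in the WT B cells. The epithelial cells stood above macrophages in WT, at 89.8 CPM (67.5 to 117 CPM). In 6PGDKO they had 61.5 CPM (47.6 to 78.3 CPM), an interval that overlapped that of macrophages. In the epithelial cells 5 cells held 83.3% and 66.7% of the Srxn1 UMIs. The ratios of macrophages (0.11, -0.08 to 0.29) and monocytes (0.02, -0.44 to 0.50) spanned 0. Macrophages were uneven: the finer cluster led by Mmp12 and Gpnmb had 92.0 and 114 CPM, the one led by Ccl12 and Hes1 9.30 and 23.0 CPM. In T cells Srxn1 stood at 5.39 CPM (52 UMIs) and 10.1 CPM (70 UMIs), a ratio of 0.90 (0.36 to 1.45), and cluster 2, led by Foxp3, the factor of regulatory T cells, held 24 and 38 of these UMIs (16.2 and 26.8 CPM). Without cluster 4 the T cell ratio was 0.65.

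Idh1 and Me1 are cytosolic sources of NADPH beside the pentose phosphate pathway, and Nqo1 is a quinone reductase often read as a gauge of NRF2 activity. Idh1 (ENSMUSG00000025950, chr1:65158616-65186479) stood at 16.6 CPM (153 UMIs) in macrophages of WT and 24.6 CPM (261 UMIs) in those of 6PGDKO. The log2 ratio was 0.57 (0.27 to 0.86). It was 0.02 after thinning and 0.81 with every cell weighted equally. Its highest level was in macrophage cluster 19, led by Retnla and Folr2, with 74.2 and 86.5 CPM from 8 and 33 UMIs. Monocytes had 15.8 and 16.7 CPM, and DCs 28.2 and 20.9 CPM, with ratios of 0.08 (-0.64 to 0.86) and -0.44 (-1.08 to 0.22). The finer Chil3 and Ace cluster had 61.8 CPM in WT and 50 CPM in 6PGDKO, from 9 and 13 UMIs, against 10.6 and 14.4 CPM in the Cd209a and Ly6i cluster. In neutrophils Idh1 had 0 UMIs in both libraries, and in T cells 9 and 17 UMIs.

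Me1 (ENSMUSG00000032418, chr9:86581363-86695914) and Nqo1 (ENSMUSG00000003849, chr8:107388225-107403205) were nearly absent from the immune cells. Nqo1 had 3 and 9 UMIs in macrophages, 0 and 1 in monocytes and none in DCs, neutrophils or B cells. Me1 had 2 and 7 UMIs in macrophages and none in monocytes, DCs, neutrophils or B cells. Epithelial cells, by contrast, had 23.3 and 18.6 CPM of Nqo1 (14 and 20 UMIs) and 56.6 and 35.4 CPM of Me1 (34 and 38 UMIs). The unnamed cluster 16 had 5 and 4 UMIs of Nqo1 and 6 and 11 of Me1. Because of these counts neither gene gave a ratio in an immune cell type, and a difference between the libraries was not detectable at this depth.

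**Figure D4:**
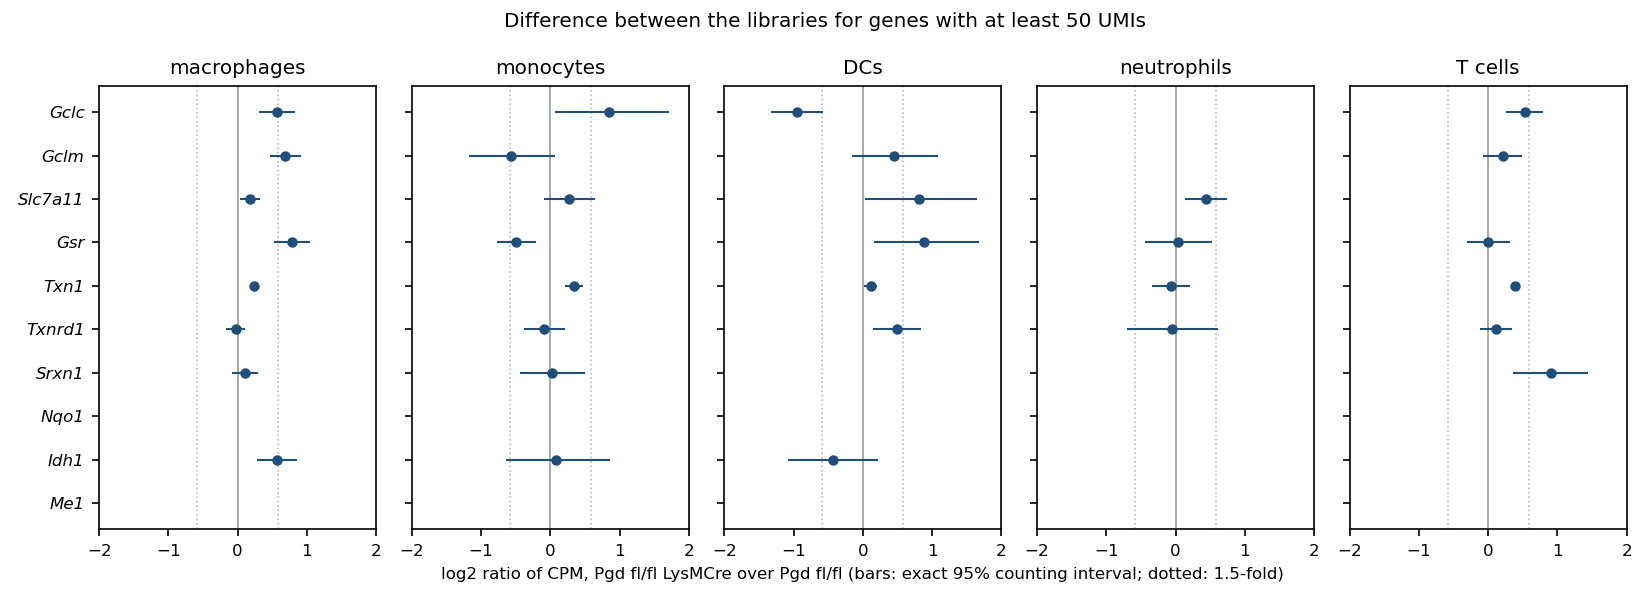
Log2 ratio of CPM, Pgd fl/fl LysMCre over Pgd fl/fl, of the genes with at least 50 UMIs over both libraries in 5 cell types, with exact 95% counting intervals as bars and dotted lines at 1.5-fold. In macrophages Gsr (0.78) and Gclm (0.68) lie past the line and Gclc and Idh1 (both 0.57) just inside it, and Gsr and Gclc change sides between cell types.

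As a set, the genes were set against all genes with at least 50 UMIs over both libraries in the same cells, and a difference of at least 1.5-fold in CPM was counted. In macrophages, 8 of the 10 genes were measured at that depth, and 2 of them, Gsr and Gclm, were higher in 6PGDKO and none lower, while 7.85% of all 10497 genes passed in either direction. Gclc and Idh1, at 1.48-fold each, lay just inside the limit. The median log2 ratio of the 8 genes was 0.40, beside 0.07 for all genes. In monocytes, 8 genes were measured and 1, Gclc, was higher, with 11.7% of 7347 genes past the limit. The median there was 0.05, beside 0.04. In DCs, 7 were measured, with Gsr and Slc7a11 higher and Gclc lower, and 10.6% of 6028 genes past the limit. Their median was 0.45, beside 0.06.

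In T cells, 6 were measured and Srxn1 was higher, with 8.74% of 9864 genes past the limit and a median of 0.30 beside 0.10. In neutrophils, 4 were measured (Slc7a11, Gsr, Txn1 and Txnrd1) and none passed, although 28.2% of the 871 genes measured there did. Only the macrophages and DCs thus had more than 1 of the genes past 1.5-fold. The 2 genes that hardly any immune cell used, Nqo1 and Me1, passed the depth limit in none of these 5 cell types and are outside these counts. B cells were not compared, as 36 cells in 6PGDKO gave 28 Txn1 UMIs and at most 2 of any other of the genes. Scaling by trimmed means in place of the total subtracts from each log2 ratio a factor of -0.18 in neutrophils, 0.11 in T cells and less than 0.1 in size in the other 3 types, and Slc7a11 in neutrophils then stood at 0.62, past the 1.5-fold limit.

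A wider list of 93 other genes of glutathione, thioredoxin, peroxide, NADPH, heme and iron metabolism, NRF2 control and other NRF2 targets put these values in context. In macrophages 78 of the 93 were measured, 5 were higher and 3 lower, with a median log2 ratio of 0.15, beside the 7.85% of all genes past the limit and their median of 0.07. The higher ones included Slc40a1, the iron exporter ferroportin (1.52, 1.09 to 1.97), Mgst1, a microsomal glutathione transferase (1.21, 0.92 to 1.504), Gstm1, a cytosolic one (0.94, 0.59 to 1.30), and Ptgr1, prostaglandin reductase (0.70, 0.23 to 1.19). Beside the targeted Pgd, the lower ones were Ggt5 (-0.86, -1.28 to -0.45) and the stress-induced sestrin Sesn2 (-0.78, -1.12 to -0.44). In monocytes 66 were measured, where 11.7% of all genes passed, and Sesn3 (0.63, 0.03 to 1.27) and Cbr1 (0.59, -0.42 to 1.74) were higher. Pgd, Mgst1 (-0.75, -1.16 to -0.33) and Ggt5 (-0.74, -1.61 to 0.18) were lower there, and the median was 0.01. Mgst1 had ratios of opposite sign in macrophages and in the monocyte cluster, while Ggt5 was negative in both, with an interval that spanned 0 in monocytes. In DCs 6 of 53 measured were higher and 1 lower (10.6% of all genes passed), in T cells 3 of 72 each way (8.74%), and in neutrophils 1 of 16 was higher and 2 lower (28.2%).

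Of the genes that govern the pathway, Nfe2l2, the gene of NRF2, stood in macrophages at 519 and 470 CPM (-0.14, -0.20 to -0.08), Keap1, its repressor, at 30.2 and 38.1 CPM (0.33, 0.11 to 0.56), and Bach1, a competing repressor of ARE genes, at 132 and 155 CPM (0.24, 0.13 to 0.35). In monocytes the ratios of Nfe2l2 (-0.06, -0.20 to 0.07), Keap1 (0.12, -0.47 to 0.74) and Bach1 (0.12, -0.08 to 0.32) all spanned 0. Nfe2l2 was highest in neutrophils, the cells with the most Slc7a11, Gsr and Txnrd1, at 720 CPM (99 UMIs) and 1166 CPM (201 UMIs), a ratio of 0.69 (0.34 to 1.06), in the same cells whose hemoglobin UMIs differed. These are RNA levels, while NRF2 is chiefly controlled through the stability of its protein.

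Across clusters the 10 genes fell into groups with unlike patterns. Pearson correlations of log2(CPM + 5) were taken over 36 points, 18 clusters in 2 libraries, where the libraries of a cluster share its definition and shallow clusters share low values. Only clusters with at least 30 cells in each library were used. This left out the epithelial cluster 18 (28 cells in WT), macrophage cluster 19 (15 cells in WT) and the mast cell cluster. Slc7a11 varied most nearly with Nfe2l2 (0.90) and Txnrd1 (0.86), Gsr with Slc7a11 (0.76) and Txnrd1 (0.75), and Nqo1 with Me1 (0.94). Gclc and Gsr had a correlation of -0.26. Of 5599 genes, those most like Slc7a11 were Clec4d (0.96) and Ptafr (0.95), those most like Gsr were Csf3r (0.84), the receptor of granulocyte colony-stimulating factor, and D8Ertd738e (0.83), and those most like Txnrd1 were Ptgs2 (0.89) and Ier3 (0.88). Nqo1 and Me1 were each most like Igfbp5 (0.85 and 0.88) and Mgp (0.85 and 0.89). With the epithelial cluster left out, the values of these 2 genes rest largely on the unnamed cluster 16, which had 6 and 11 UMIs of Me1. Gclc was most like Polr3c (0.77) and Ramp3 (0.71), Gclm like Mrps18a (0.84) and Psmd6 (0.81), Txn1 like Sem1 and Snf8 (0.79 each), Srxn1 like Sec14l1 (0.83) and Slc15a3 (0.80), and Idh1 like F11r (0.83) and Anxa5 (0.79).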

How the data were processed

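Single-cell RNA was measured in 2 libraries, 1 per genotype, whose suspensions were tagged, pooled and loaded together. The authors deposited the filtered, unnormalized UMI count of each gene and barcode. The submitters' processing notes name Cell Ranger 6.1.2, Seurat and mm10. The counts of 12 tagging oligonucleotides were used only to check the labels. Cells with 500 to 7500 genes and at most 15% mitochondrial UMIs were clustered with Seurat 5.3.0 in R 4.3.3 (2000 variable genes, 30 components, 20 neighbours, resolution 0.8, no integration). The limits for naming clusters were at least 3 markers detected in 25% of cells. No doublet caller was run, and the tags mark only doublets between the libraries. UMIs were summed per cell type and library and scaled to CPM. Exact Poisson, Clopper-Pearson and conditional 95% intervals came from scipy 1.17.1, and they treat UMIs as independent. A floor of 3 counts was computed for each CPM, and a share of 0 cells was bounded by its exact interval. The interval script was tested on simulated data. Gene positions and promoters were RefSeq's for GRCm38.p6, the build named mm10. Genes named beyond the 10 were Pgd, Nfe2l2, Keap1 and Bach1, up to 4 genes of the wider list in each direction in macrophages and in monocytes, and the 2 genes most correlated with each of the 10. The members and all gene lists were chosen with earlier results of these data known. Alternatives were another scaling, equal weight per cell, thinning to 2500 UMIs, placing cells by their own markers, resolution 1.6, clustering without Lyz2, Pgd and the 10 genes, leaving out cells with markers of other lineages or the 5 cells with the most UMIs, no cell filter, and other limits of depth and fold.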

Additional observations from a re-analysis of the deposited data

Results flagged for a closer look

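The log2 ratio of Gsr was 0.78 in macrophages and 0.89 in DCs, but -0.49 in the monocyte cluster, with all 3 counting intervals away from 0. The monocyte label is weakly held, and the ratio was 0.21 in the cells kept as monocytes at resolution 1.6 and -0.16 in cells placed by their own markers. Gclc was higher in macrophages (0.57), monocytes (0.85) and T cells (0.53) of Pgd fl/fl LysMCre and lower in DCs (-0.95). Each of these Gclc ratios kept its sign but was much smaller in size under an alternative given above. In macrophages and DCs this was leaving out cells with markers of other lineages, and in monocytes it was thinning. In T cells it was clustering without Lyz2, Pgd and the genes described here. The opposite signs of Gclc thus rest on ratios that depended on the processing. Mgst1 stood at 1.21 in macrophages and -0.75 in the monocyte cluster, and Nfe2l2 at 0.69 in neutrophils and -0.14 in macrophages. With 1 library per genotype, none of these differences between cell types was tested.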

How the results depend on the processing

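The median log2 ratio of the measured genes in macrophages, 0.40 as reported, lay between 0.26 and 0.57 under the 11 alternatives run for it. The count of genes past 1.5-fold there, 2 as reported, was 4 with cells weighted equally and 0 at a 2-fold limit. In monocytes the count of 1 became 2 with trimmed-mean scaling, with cells weighted equally and, in an alternative chosen after seeing the data, without the Chil3 and Ace cells. It became 3 without the 5 cells with the most UMIs, and 0 after thinning, with cells placed by their own markers, at resolution 1.6 and at 2-fold. Without those 5 cells the monocyte median was 0.48. With A required as the next base, 1 gene (Txnrd1) in place of 4 held the ARE letters. Gsr in monocytes turned from -0.49 to 0.21 at resolution 1.6, which kept 22 and 43 cells as monocytes. Gclm in DCs was 0.45 as reported and -0.35 without cells carrying markers of other lineages. The levels themselves also depended on the cell labels. With cells placed by their own markers, 42 levels of a gene in a cell type and library were counted as moved and 58 as unchanged. At resolution 1.6 these counts were 18 and 82. The causes of these changes were not tested. There was no replicate to leave out. No paired analysis was possible because each genotype has 1 library. Depth limits Nqo1 and Me1 in all immune cells, and all B cell and most neutrophil ratios.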
